A study of Solanum lycopersicum with 24 samples.

Results

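Acylsugars are sticky esters of a sugar core with short and longer acyl chains that tomato secretes from glandular hairs, and 7 of their synthesis genes are described here in gland cells of the type VI leaf trichome. The genes are ASAT1 (Solyc12g006330), ASAT2 (Solyc04g012020), ASAT3 (Solyc11g067270), ASAT4 (Solyc01g105580), IPMS3 (Solyc08g014230), AACS1 (Solyc07g043630) and AECH1 (Solyc07g043680). They were chosen by locus number, for their known place in the pathway, from the 34725 gene models counted, and all 7 were found among them. The names rest on general knowledge of the locus numbers and no annotation of these gene models was at hand to check them.

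Acylsugars are assembled on sucrose by the acylsugar acyltransferases. ASAT1 adds the first chain, ASAT2 and ASAT3 add the next ones, and ASAT4 acetylates the product. The chains come as acyl-CoA esters. Branched short chains derive from branched-chain amino acid metabolism, in which IPMS3, an isopropylmalate synthase, lies on the leucine side, while the acyl-CoA synthetase AACS1 and the enoyl-CoA hydratase AECH1 serve the medium-length chains. In tomato the pathway is best known from the tip cells of the long-stalked type I and type IV trichomes, whereas type VI glands are known chiefly for terpenes and flavonoids.

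Leaf type VI glands were collected from 3 genotypes of Solanum lycopersicum, the af (anthocyanin free) mutant and its complemented lines number 4 (CHI4) and number 9 (CHI9). Plants were 5 weeks old and had grown at 28 °C under 250 µE of light, with no other treatment named. Each genotype was sampled at the same 4 sampling times, called collections here, so there were 4 libraries per genotype and 12 in all, each sequenced on 2 lanes. That af lacks a working chalcone isomerase, an enzyme of flavonoid synthesis that the lines have regained, is general knowledge. The promoter of the introduced gene, the wild-type parent, the number of plants behind a library and whether a line is 1 transformation event are not stated in the labels. Dates carried by the files place collections 1 and 2 on 19 and 28 March and collections 3 and 4 on 5 and 12 May.

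The gene counts of a library came to between 8.99 M (CHI9 replicate 2) and 70.9 M (af replicate 1), and the median library had 39.4 M. Levels are given as counts per M gene counts (CPM). By counting error alone, a gene with no count could have a level of up to 0.0423 CPM (deepest library) or 0.334 CPM (shallowest library). These limits stand for 3 counts on the library total, before any scaling between libraries. A pair of libraries stood apart: CHI9 replicate 2 was the shallowest, and the lanes of af replicate 4 were unequal, lane 2 having 0.450 times the counts of lane 1. Type VI gland markers taken from general knowledge were read in every library, with a summed level of the 6 loci of 4193 to 5490.5 CPM across the af libraries, 19282 to 26142 in CHI4 and 20085 to 24477 in CHI9. Of these, 4 terpenoid synthesis genes fell in af, among them neryl diphosphate synthase NDPS1 by 3.33 on the log2 scale, the regulator EOT1 rose by 0.99, and the regulator MYC1 differed by -0.01 (SE 0.129, edgeR adjusted p = 0.956). Among all tested genes, 13.6% fell and 12.9% rose in af (edgeR, adjusted p under 0.05). The 3 small-subunit genes of Rubisco, taken as green leaf markers, summed to 227 to 306 CPM in af, 334 to 422 in CHI4 and 349.9 to 394 in CHI9, and 1 of the 3 fell in af. The part of these shifts in the results that follow was not tested. No marker list of type I or type IV tip cells apart from acylsugar genes was used, so their share of the collected cells was not tested. In bulk samples of this kind, fewer cells of a type and less RNA per cell cannot be told apart.

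The acylsugar genes were low to moderate in these glands. Together they held 49.2 ± 5.81 counts per M gene counts in af (SD, n = 4), 107 ± 10.0 in CHI4 (SD, n = 4) and 79.1 ± 8.33 in CHI9 (SD, n = 4), before any scaling between libraries. ASAT3 and IPMS3 supplied 92.5% of the 12-library total, with 17286 and 16888 counts. The other 5 genes had 87 (ASAT1) to 1294 (AECH1) counts over all 12 libraries, so their values carry much more counting error. ASAT3 made up 31.7% ± 9.18 of the pathway's counts in af (SD, n = 4), 51.4% ± 5.60 in CHI4 (SD, n = 4) and 51.5% ± 3.16 in CHI9 (SD, n = 4). These shares are not corrected for transcript length.

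**Figure D1:**
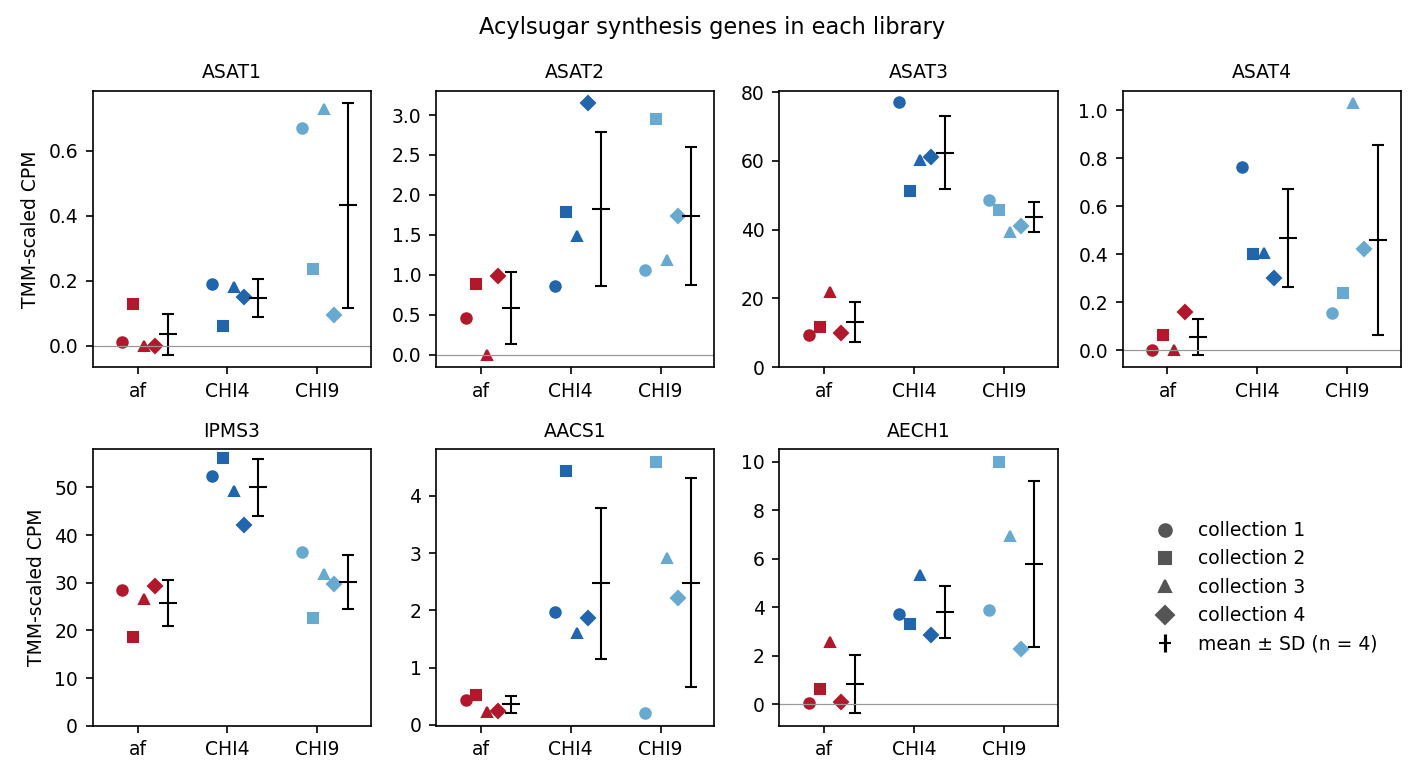
Levels of the 7 acylsugar synthesis genes in each library, as TMM-scaled CPM on linear axes that differ between panels, with af, CHI4 and CHI9 along the horizontal axis, a symbol shape per collection, and the mean ± SD of 4 libraries beside each group. ASAT3 is the gene whose 4 af libraries (9.29 to 21.8 CPM) all lie below the 8 line libraries (39.2 to 77.0 CPM).

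The first comparison set the af mutant against the complemented lines. In af, 4 of the acylsugar genes fell: ASAT3, IPMS3, AACS1 and AECH1. No acylsugar gene rose, and ASAT2 and ASAT4 were tested without passing the threshold, while ASAT1 had too few counts to enter the fit. The filter asked for 4 libraries over 0.254 CPM. ASAT4 entered the fit only through line libraries, with 0 af libraries over that level. AECH1 had 2 af libraries over it, and ASAT2 and AACS1 had 3 each, so these genes needed line libraries as well. ASAT3 and IPMS3 had 4 each. Among all 18326 tested genes, 13.6% fell and 12.9% rose in af at the same threshold (edgeR, adjusted p under 0.05). The median log2 difference of the 6 tested acylsugar genes was -2.24, or -1.99 without ASAT4, beside 0.07 for all tested genes. That background depends on scaling: 2358 genes rose and 2500 fell with TMM scaling, but 6616 rose and 1086 fell with library totals alone, when the median of all genes was 0.50. Left out in turn, CHI9 replicate 2 left 3 acylsugar genes called and af replicate 4 left 3. These libraries were not special in this, since any CHI4 library, or CHI9 replicate 1 or 3, also left 3. Without af replicate 2 there were 2, and without af replicate 1 or 3 or CHI9 replicate 4 there were 4. With lane 2 alone for af and CHI4 replicate 4, chosen after seeing the data, 5 were called, ASAT4 among them.

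Among the acyltransferases, ASAT1 was barely read. Its level was 0.0111, 0.127, 0 and 0 CPM in af replicates 1 to 4, 0.191, 0.0617, 0.180 and 0.150 CPM in CHI4, and 0.669, 0.236, 0.729 and 0.0936 CPM in CHI9. These values stand for 9, 22 and 56 counts per genotype, and the single af library with more than 1 count, replicate 2, lay inside the range of the lines. With the lines pooled, a two-sided exact permutation test of scaled CPM gave an unadjusted p = 0.0121 (4 against 8 libraries, af lower). The same exact test without scaling gave p = 0.0323. This test does not take into account library depth or the shared collections. Fitted with the low genes kept in, the log2 difference was -2.69 (SE 1.49, edgeR adjusted p = 0.214).

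ASAT2, the enzyme of the second acylation, had 0.457, 0.889, 0 and 0.980 CPM in af, 0.861, 1.79, 1.49 and 3.15 CPM in CHI4, and 1.06, 2.95, 1.18 and 1.73 CPM in CHI9. The highest af libraries overlapped the lowest line library, and af replicate 3 had no count. The log2 difference of af from the lines was -1.60 (SE 0.791, edgeR adjusted p = 0.146), short of the threshold, although limma-voom placed it just past (adjusted p = 0.0455). Over all alternatives its adjusted p ran from 0.0455 to 0.263.

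ASAT3, which acylates the furanose ring, had the smallest adjusted p of the pathway. It stood at 9.29, 11.7, 21.8 and 9.84 CPM in af, 77.0, 51.3, 60.3 and 61.1 CPM in CHI4, and 48.5, 45.8, 39.2 and 41.1 CPM in CHI9. Every af library lay below every line library, with af replicate 3 the highest of af. The means were 13.2 ± 5.83 CPM in af (SD, n = 4), 62.4 ± 10.7 in CHI4 (SD, n = 4) and 43.6 ± 4.29 in CHI9 (SD, n = 4). ASAT3 was 3.97-fold lower in af than in the lines, a log2 difference of -1.99 (SE 0.212, edgeR adjusted p = 1.24e-06). In 22 alternative settings this difference ran from -2.34 to -1.59 and passed the threshold in each. Of all tested genes, 8.68% likewise had every af library below every line library.

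ASAT4, the acetylating enzyme, was read at the edge of detection. It had 0, 0.0635, 0 and 0.157 CPM in af, 0.765, 0.401, 0.406 and 0.300 CPM in CHI4, and 0.154, 0.236, 1.03 and 0.421 CPM in CHI9. Only af replicate 4 reached into the range of the lines, and it exceeded CHI9 replicate 1 alone. The log2 difference rested on 8 af counts against 67 in CHI4 and 60 in CHI9, and was -3.20 (SE 1.27, edgeR adjusted p = 0.0696). It passed with DESeq2 (adjusted p = 0.0149) and with limma-voom (adjusted p = 0.0171), and with lane 2 alone for af and CHI4 replicate 4 (edgeR adjusted p = 0.0197). Its adjusted p ran from 0.0149 to 0.174 over 19 alternatives.

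On the side of chain supply, IPMS3 had about as many counts as ASAT3 but differed less between genotypes. It stood at 28.4, 18.7, 26.5 and 29.4 CPM in af, 52.5, 56.2, 49.2 and 42.1 CPM in CHI4, and 36.4, 22.7, 31.8 and 29.8 CPM in CHI9. The af libraries lay below all CHI4 libraries and overlapped those of CHI9. IPMS3 was 1.51-fold lower in af when both lines were averaged, at -0.60 on the log2 scale (SE 0.160, edgeR adjusted p = 0.00893). This call was lost without af replicate 2 (-0.47, adjusted p = 0.0536) and with library totals in place of TMM scaling (-0.18, adjusted p = 0.402). Against CHI4 alone the log2 difference was -0.96 (SE 0.181, adjusted p = 0.000777), and against CHI9 alone -0.23 (SE 0.181, adjusted p = 0.399), which turned to 0.14 with library totals.

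AACS1, which activates free acids to acyl-CoA, had 0.435, 0.524, 0.231 and 0.235 CPM in af, 1.98, 4.44, 1.60 and 1.87 CPM in CHI4, and 0.206, 4.60, 2.92 and 2.22 CPM in CHI9. CHI9 replicate 1, with 8 counts, lay below all 4 af libraries, and the other 7 line libraries lay above them. The gene was 6.74-fold lower in af than in the lines, a log2 difference of -2.75 (SE 0.704, edgeR adjusted p = 0.00645). The call was lost with limma-voom (-2.16, adjusted p = 0.0634) and held when any single library was left out, with adjusted p from 0.000451 to 0.0267.

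AECH1, the hydratase that works with AACS1, varied widely within af. It had 0.0446, 0.603, 2.58 and 0.0784 CPM in af, 3.73, 3.30, 5.34 and 2.87 CPM in CHI4, and 3.89, 10.0, 6.93 and 2.29 CPM in CHI9. The range within af ran from 2 counts in replicate 4 to 112 in replicate 3, and that replicate exceeded CHI9 replicate 4. The log2 difference from the lines was -2.49 (SE 0.837, edgeR adjusted p = 0.0399). With the collection as a block the difference was -3.37 (SE 0.696, adjusted p = 0.00115), and without af replicate 3 it was -4.20 (adjusted p = 0.000449). Leaving out af replicate 2 or 4, any CHI4 library, or CHI9 replicate 1, 2 or 3 took the adjusted p to between 0.0516 and 0.114, and keeping the low genes in the fit took it to 0.0694.

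**Figure D2:**
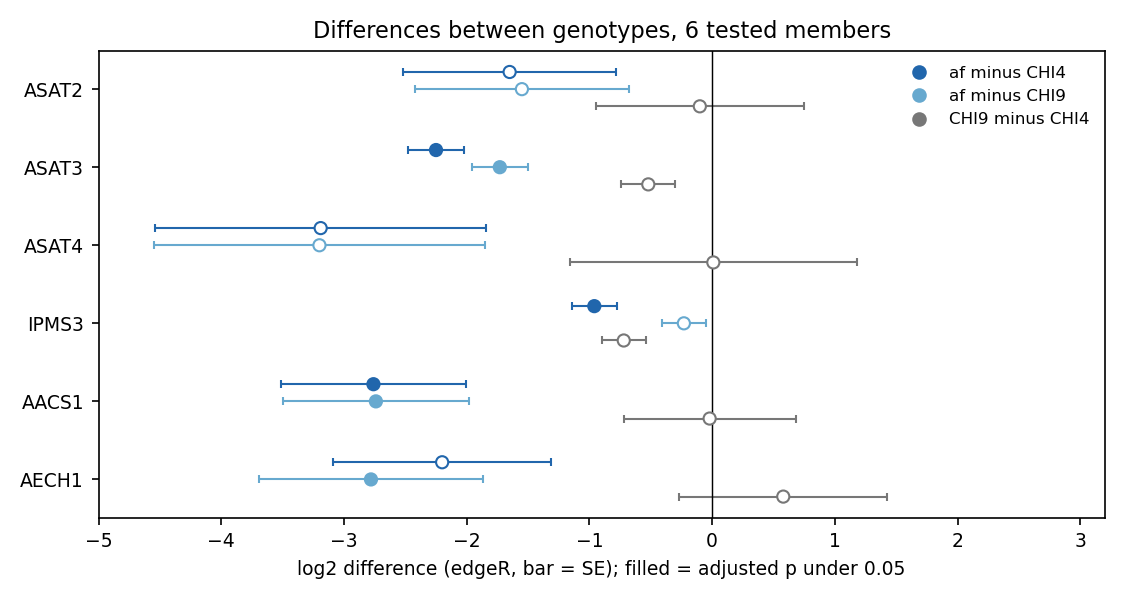
Log2 differences fitted by edgeR for the 6 tested acylsugar genes, with af minus CHI4, af minus CHI9 and CHI9 minus CHI4 as separate points, bars of 1 SE, and filled points where the adjusted p is under 0.05. All af points lie left of 0, from -3.20 to -0.23, and no point of CHI9 minus CHI4 is filled.

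The separate lines were then set against af and against each other. Against CHI4, ASAT3, IPMS3 and AACS1 fell in af, 3 of 6 tested, where 11.2% of all tested genes fell. Against CHI9, ASAT3, AACS1 and AECH1 fell, again 3 of 6, where 11.6% of all tested genes fell. Both comparisons use the same af libraries, so they do not stand for separate evidence. For ASAT3 the log2 difference was -2.25 (SE 0.231) from CHI4 and -1.73 (SE 0.228) from CHI9. For AACS1 it was -2.76 (SE 0.751) and -2.74 (SE 0.755), of which limma-voom did not call the second (-1.76, adjusted p = 0.200). For AECH1 it was -2.20 (SE 0.889, edgeR adjusted p = 0.0994) from CHI4, which passed with the collection as a block (-3.19, adjusted p = 0.00373), and -2.78 (SE 0.910, adjusted p = 0.0428) from CHI9. Without af replicate 3 the AECH1 difference from CHI4 also passed (-3.91, edgeR adjusted p = 0.0014), as it did with limma-voom (-3.86, adjusted p = 0.00591). The AECH1 call against CHI9 was lost without af replicate 2 or 4, CHI4 replicate 1, 2 or 4, or CHI9 replicate 1, 2 or 3, with adjusted p from 0.0543 to 0.115. It was also lost with no filter on low counts (edgeR adjusted p = 0.0783) and with lane 2 alone for af and CHI4 replicate 4 (adjusted p = 0.05). ASAT4 did not pass against CHI4 or CHI9 (edgeR adjusted p = 0.104 and 0.103). It passed against both with DESeq2 (adjusted p = 0.0417 and 0.0423), with limma-voom (adjusted p = 0.026 and 0.0397), and with lane 2 alone for af and CHI4 replicate 4 (edgeR adjusted p = 0.0298 and 0.0328).

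Between CHI9 and CHI4 no acylsugar gene passed the threshold with edgeR, and 0.0928% of all tested genes did. Unadjusted, 2 of the 6 tested genes had p under 0.05, IPMS3 and ASAT3, and these were also the pair whose CHI9 libraries all lay below the CHI4 libraries. Of all tested genes, 6.16% had an unadjusted p under 0.05 and 1.72% had all CHI9 libraries below all CHI4 libraries. IPMS3 was lower in CHI9 by a log2 difference of -0.72 (SE 0.181, edgeR adjusted p = 0.282), which DESeq2 placed at an adjusted p of 0.0498. ASAT3 had a difference of -0.52 (SE 0.221, edgeR adjusted p = 0.772). DESeq2 called 1 of the 6 genes and limma-voom called 0. The differences of ASAT2, ASAT4, AACS1 and AECH1 lay between -0.10 and 0.58 with SE of 0.701 to 1.17, which does not show that the lines were alike.

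Across the collections, ASAT2, ASAT3, ASAT4, IPMS3 and AECH1 were lower in af than in both lines in 4 of 4 collections, and ASAT1 and AACS1 in 3 of 4. Of all tested genes, 14.9% were lower in af than in both lines in all 4 collections. ASAT2, ASAT4 and AECH1 met the filter only with line libraries, so their direction in each collection is not separate support. ASAT4 had 0, 4, 0 and 4 af counts in collections 1 to 4, and 2 counts in CHI9 in collection 2. ASAT2 had 0 af counts in collection 3. The size of the differences varied between collections. For ASAT3 the mean of the lines was 6.76, 4.14, 2.28 and 5.19 times the af level in collections 1 to 4, smallest in collection 3, where af was highest. For AECH1 the same ratio was 85.4, 11.1, 2.38 and 32.9, and it rests on 4 af counts in collection 1 and 2 in collection 4. For IPMS3 the ratio stayed between 1.22 and 2.11, and for AACS1 it was 2.51 in collection 1 and 8.63 to 9.80 in the others.

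**Figure D3:**
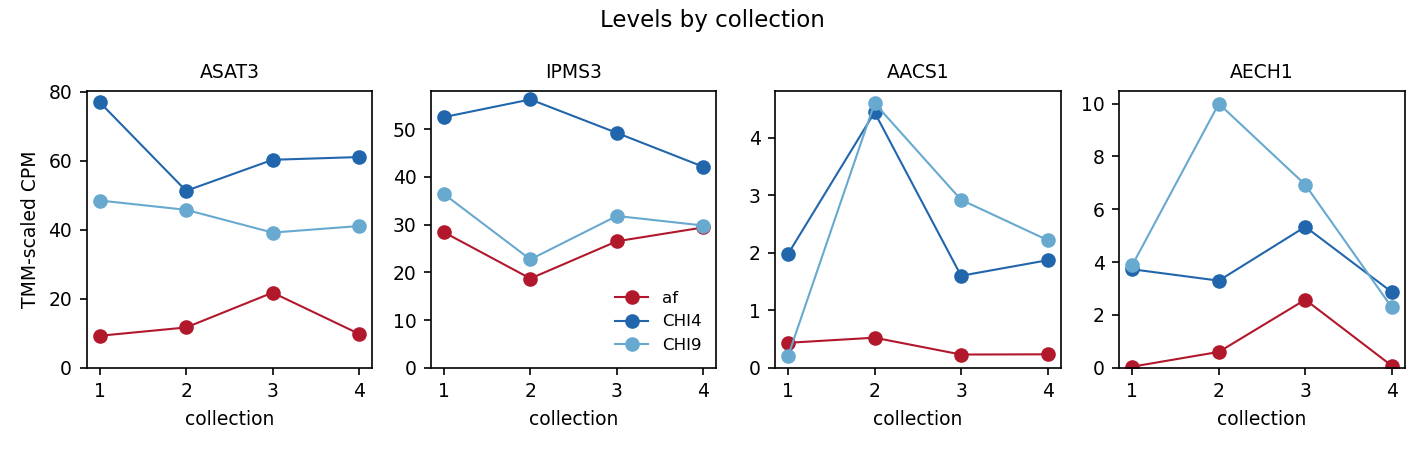
TMM-scaled CPM of ASAT3, IPMS3, AACS1 and AECH1 by collection, with 1 library per genotype at each collection and lines joining the libraries of a genotype. In collection 3, af stands at its highest, 21.8 CPM for ASAT3 and 2.58 CPM for AECH1, and lies below both lines.

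The later collections (3 and 4) were compared with the earlier ones (1 and 2) in a fit with genotype and collection. None of the 6 tested acylsugar genes differed (edgeR), 0 of them had an unadjusted p under 0.05, and DESeq2 and limma-voom called 0. Of all tested genes 0.971% were called in that comparison, whose p-values leave out the spread between collections. With genotype and period only, which keeps that spread in, 0 genes were called. The log2 differences ran from -0.38 in AACS1 (SE 0.597) to 0.75 in ASAT4 (SE 1.20), and were 0.08 in ASAT3 (SE 0.173) and 0.03 in IPMS3 (SE 0.137). Whether the gap between af and the lines changed between the periods was tested as an interaction, which called 0 of 6 acylsugar genes, with 0 at an unadjusted p under 0.05 and 0 by DESeq2 or limma-voom, and 0% of all tested genes. ASAT3 came nearest, with an interaction of 0.75 on the log2 scale (SE 0.372, unadjusted p = 0.0604 from the edgeR fit). That value hung on single libraries. Leaving out 1 library gave 0.06 to 1.21, with 0.06 reached without af replicate 3, which leaves only af replicate 4 for the later period.

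The rest of the branched-chain list, again named from general knowledge, holds 2 further isopropylmalate synthases (IPMS1, IPMS2), the branched-chain aminotransferases BCAT1 and BCAT2, and the threonine deaminases TD1 and TD2. Of these 6 genes, all tested, 1 rose in af (IPMS2), 1 fell (IPMS1) and 4 did not pass, where 12.9% of all tested genes rose and 13.6% fell. Their median log2 difference was -0.06 beside 0.07 for all tested genes. IPMS2 (Solyc08g014130) had 35.6, 34.3, 16.0 and 50.2 CPM in af, 8.45, 10.5, 7.46 and 8.47 CPM in CHI4, and 9.96, 11.7, 12.9 and 11.8 CPM in CHI9. All af libraries lay above all line libraries, which 7.85% of tested genes also showed. IPMS2 was 3.38-fold higher in af, at 1.76 on the log2 scale (SE 0.213, edgeR adjusted p = 4.98e-06), opposite in direction to its paralog IPMS3. IPMS1 (Solyc06g053400) stood at -0.41 (SE 0.149, adjusted p = 0.0482), and its direction turned with library totals alone (0.03, adjusted p = 0.884). Its call was also lost in 11 further alternatives, with adjusted p up to 0.174, of which 9 left out 1 library (af replicate 1, 2 or 3, CHI4 replicate 1, 3 or 4, or CHI9 replicate 1, 3 or 4). TD1, by far the most abundant of the list, had 2236 ± 273 CPM in af (SD, n = 4), 2719 ± 263 in CHI4 (SD, n = 4) and 2656 ± 259 in CHI9 (SD, n = 4), and did not pass (-0.27, SE 0.136, adjusted p = 0.164).

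Because shares within a family do not depend on the scaling between libraries, the counts of the 3 isopropylmalate synthases were also set against each other. IPMS2 made up 26.0% ± 6.24 of them in af (SD, n = 4) and 7.53% ± 2.22 in the lines (SD, n = 8). A two-sided exact permutation test gave p = 0.00404, the smallest that 495 arrangements allow, and 0.0121 after adjustment over the 3 shares. IPMS1 made up 53.0% ± 1.81 in af and 63.9% ± 5.58 in the lines (exact permutation p = 0.0162, adjusted 0.0242). The 3 shares of a library add to the whole, so a larger IPMS2 share leaves less for IPMS1 and IPMS3. The 3 tests are therefore not separate evidence, and a lower share of IPMS1 does not show that IPMS1 itself fell. IPMS3 made up 20.9% ± 5.42 in af and 28.6% ± 6.63 in the lines (exact permutation p = 0.0646), so its share overlapped between them. Its share was 33.6% ± 5.26 in CHI4 and 23.5% ± 2.62 in CHI9, with no overlap (exact permutation p = 0.0286, the smallest that 70 arrangements allow, adjusted 0.0857). In af replicate 3, ASAT3 and AECH1 were highest among af. The IPMS3 level was not, at 26.5 CPM there against 28.4, 18.7 and 29.4 CPM in the other af libraries. AACS1 had its lowest af level there (0.231 CPM), and ASAT1, ASAT2 and ASAT4 had no count. IPMS1 (50.6 CPM) and IPMS2 (16.0 CPM) had their lowest af levels in that replicate. There IPMS2 had its lowest share of that genotype, 17.2% (exact binomial 95% interval 16.0 to 18.4), and IPMS3 its highest, 28.5% (27.1 to 29.9). How reads shared by near-identical stretches of these paralogs were divided was not tested, and such intervals cover counting error only.

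**Figure D4:**
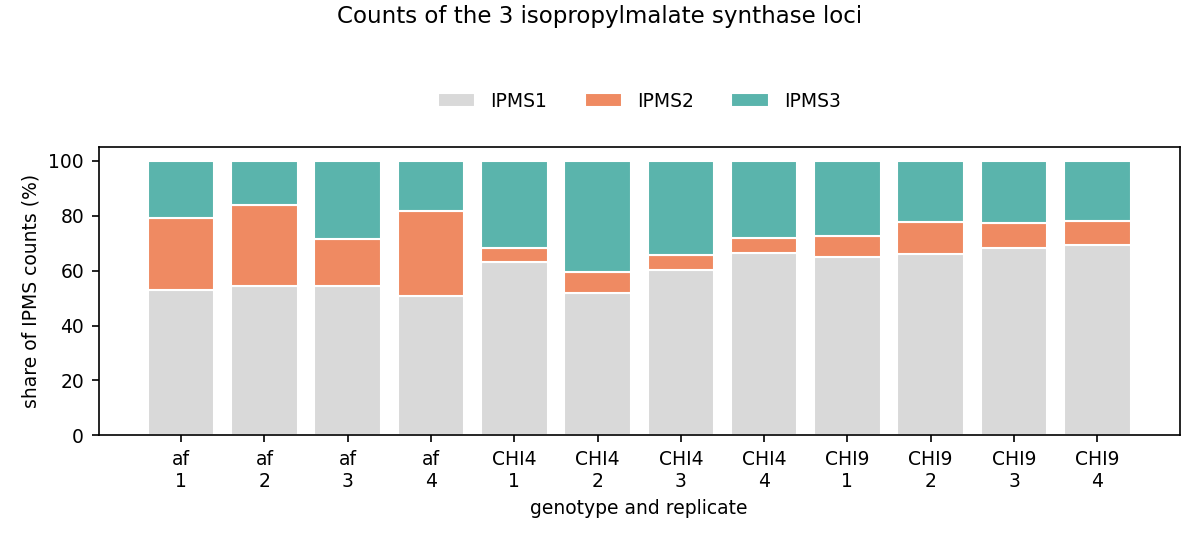
Share of the summed IPMS1, IPMS2 and IPMS3 counts taken by each locus, in percent, as stacked bars for the 12 libraries. The IPMS2 segment spans 17.2% to 31.2% in the mutant libraries and 5.09% to 11.5% in the others.

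AACS1 and AECH1 lie near each other on chromosome 7, with 4 gene models between them by locus number. From Solyc07g043600 to Solyc07g043720 there were 12 gene models, of which 9 were tested and 2 had no read. Besides AACS1 and AECH1, around which the stretch was chosen, 7 were tested, and 2 of them fell in af, where 13.6% of all tested genes fell. Their median log2 difference was -0.15, beside 0.07 for all tested genes. Both lie between AACS1 and AECH1, and the files do not name them. Solyc07g043660 had 11.7, 13.5, 14.6 and 11.4 CPM in af, 47.5, 40.4, 49.8 and 66.7 CPM in CHI4, and 33.5, 39.2, 32.5 and 28.9 CPM in CHI9. All its af libraries lay below all line libraries, and its log2 difference was -1.69 (SE 0.164, edgeR adjusted p = 4.32e-07). Solyc07g043650 had a difference of -1.26 (SE 0.306, adjusted p = 0.00503), with the lowest line library, CHI9 replicate 1 at 8.60 CPM, inside the af range of 4.71 to 11.2 CPM. The 3 tested models before AACS1 did not pass, with log2 differences of -0.15, 0.34 and 0.74, and neither did the remaining models between, Solyc07g043640 (1.29, SE 1.23, adjusted p = 0.482) and Solyc07g043670 (-1.53, SE 1.10, adjusted p = 0.334). Solyc07g043640 passed as higher in af once CHI4 replicate 2 was left out (3.34, adjusted p = 0.0331).

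**Figure D5:**
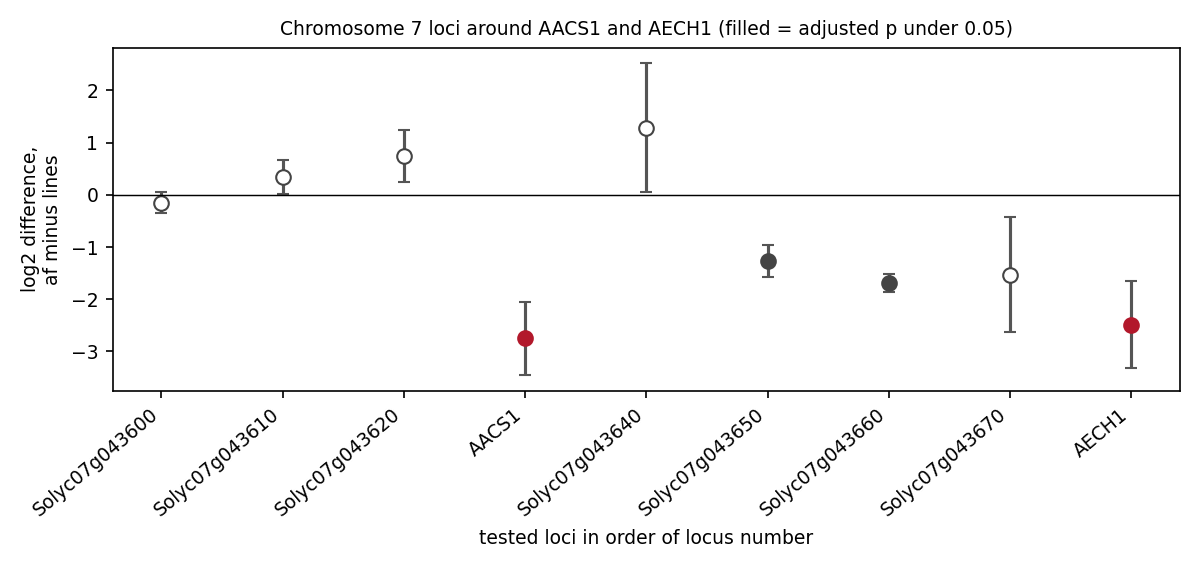
Log2 difference of af minus lines, with bars of 1 SE, for the 9 tested gene models around AACS1 and AECH1 on chromosome 7, in order of locus number and not to scale of distance. Filled points passed the threshold, and those of AACS1 (-2.75), Solyc07g043650 (-1.26), Solyc07g043660 (-1.69) and AECH1 (-2.49) lie below 0.

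Libraries of a genotype did not rank alike for all acylsugar genes. Over the 12 libraries, Pearson's r of log2(CPM + 0.5) between pairs of the 6 tested genes ran from 0.24 to 0.86, with a median of 0.59, as a description of libraries that share the genotype difference. With each genotype's mean removed, r ran from -0.61 to 0.72 with a median of -0.16, and the highest pair was AECH1 with ASAT3. Both genes had their highest af level in replicate 3, 2.58 CPM for AECH1 and 21.8 CPM for ASAT3. How much of that correlation rests on this library was not tested. The tested gene most like ASAT3 over the 12 libraries, among 15535 with at least 1 CPM, was Solyc11g067170 (r = 0.982), which lies on the same chromosome with 9 gene models between. It had 61.1 ± 21.2 CPM in af (SD, n = 4), 247 ± 29.2 in CHI4 (SD, n = 4) and 158 ± 34.7 in CHI9 (SD, n = 4). The gene next in rank, on another chromosome, had r = 0.981 with ASAT3. Of the genes ranked, 2.26% had r over 0.9 with ASAT3. The nearest genes to ASAT2 and ASAT4 were Solyc05g015510 (r = 0.935) and Solyc08g075750 (r = 0.940), and those correlations rest on few counts of the acyltransferases.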

How the data were processed

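The deposited values are raw counts for each gene model, with separate files for the lanes, which the authors made with Trimmomatic, TopHat2, SAMtools and HTSeq per the submitters' processing notes. Not given in the sources used here are versions, genome build, annotation and strand setting, so overlapping and antisense genes cannot be told apart, and whether a count is a read or a read pair is not recorded. Per the labels' protocols, an RNeasy kit gave the total RNA and a TruSeq kit the libraries. The 2 lanes of a library were summed. The 5 summary entries that name no gene, 19.3% to 23.5% of each library, were left out.

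Counts were fitted in R 4.3.3 with edgeR 4.0.16 (filterByExpr, TMM scaling, robust quasi-likelihood test), with the 3 genotypes in 1 model, and p-values were Benjamini-Hochberg adjusted over 18326 tested genes with a threshold of 0.05. TMM factors lay between 1.10 and 1.28 for the mutant and between 0.853 and 0.988 for the lines. Printed CPM are TMM-scaled. DESeq2 1.42.0 and limma-voom (limma 3.58.1) were alternatives. Exact permutation tests and intervals used scipy 1.17.1.

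The members and gene lists were chosen with earlier results of these data known. Named genes are the 7 acylsugar genes, the branched-chain, gland and leaf lists, the chromosome 7 loci around AACS1, and the gene most correlated with each tested ASAT. Alternatives were other scaling and tools, no filter, single lanes, halved counts, a collection block and each library left out. None of the 41476 genes of the RefSeq table matched by identifier (0 matches). Of 13 named loci, 6 had an entry of the same name there, and all 6 lay on the chromosome given in the locus number. Collections pair the libraries because the labels give a shared sampling time. Deviations from genotype means correlated at -0.00927 to 0.284 within a collection (median 0.178, 8 of 12 pairs over 0.1). Across other collections the median was -0.0544, and 11 of 12 libraries correlated best with a library of their own collection. The main fit of the genotypes and the exact permutation tests did not use this pairing, and the collection block did. Replicates are separate collections, and p-values of the genotype comparisons in the main fit measure the spread between them. The comparison of later with earlier collections had a term for each collection. Its p-values therefore measure the spread left within collections, not the spread between them.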

Additional observations from a re-analysis of the deposited data

Results flagged for a closer look

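Of 48 groups of 4 libraries examined, 5 held a library far from the other 3 by Dixon's criterion, which chance alone meets in about 1 group in 20. ASAT1 in af was 0.127 CPM in replicate 2 and 0 to 0.0111 CPM in the others. AACS1 in CHI4 was 4.44 CPM in replicate 2 and 1.60 to 1.98 CPM in the others. TD2, a threonine deaminase, was 2.50 CPM in the same CHI4 library and 0.200 to 0.519 CPM in the other CHI4 libraries. TD1 in CHI4 was 2327 CPM in replicate 1 and 2804 to 2875 CPM in the others. The share of IPMS3 among the isopropylmalate synthase counts in CHI9 was 27.4% in replicate 1 and 21.9% to 22.5% in the others. The cause of these values was not tested.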

How the results depend on the processing

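The direction of ASAT2, ASAT3, ASAT4, IPMS3, AACS1 and AECH1 in af against the lines was negative under every alternative that tested them, and 2 (without af replicate 2) to 5 of them passed. In the main fit 4 passed, where 13.6% of all tested genes fell. Wherever 5 passed, ASAT4 was among them, a gene that met the filter only through line libraries. ASAT2, AACS1 and AECH1 also needed line libraries to meet it. The directions of these genes and of ASAT4 are therefore not separate support. Single lanes and halved counts left ASAT4 untested. With library totals alone, chosen after seeing the data, 7702 genes differed between af and the lines (4858 with TMM scaling), 6566 between af and CHI4 and 284 between collections, and IPMS1 turned to 0.03. Leaving out 1 library gave 3593 to 5361 genes for af against the lines, 2724 to 4200 against CHI4, 2733 to 3918 against CHI9, 9 to 16 for CHI9 against CHI4 (17 with all), 26 to 736 for the collections (178 with all; 736 without CHI4 replicate 1, 26 without CHI9 replicate 4) and 0 to 0 for the interaction. CHI9 against CHI4 gave 92 genes with DESeq2, 10 with limma-voom and 36 with the collection as a replicate block. The collections gave 660 genes with DESeq2, 573 with limma-voom, 759 with no filter and 0 with genotype and period only (2174 at an unadjusted p under 0.05). The interaction called 0 genes with edgeR and limma-voom (505 at an unadjusted p under 0.05 in edgeR), 1 with DESeq2 and 17 with no filter. The cause of these changes was not tested. The block called 5808 genes for af against the lines, and among the acylsugar genes it changed the call of AECH1 against CHI4 alone. Among the acylsugar genes, ASAT1 and ASAT4 had the fewest counts, 87 and 135 in all 12 libraries.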
